A study of Brassica rapa subsp. pekinensis with 2 samples.

Results

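The genes that make, inactivate, perceive and respond to gibberellin, cytokinin and abscisic acid were compared between the anthers and the vegetative organs of Chinese cabbage (Brassica rapa). They were the 147 reference transcripts, of 34213 reference transcripts and 50834 linear transcripts in all, whose annotation names gibberellin, DELLA, cytokinin, a two-component response regulator, abscisic acid or an epoxycarotenoid dioxygenase. Entries named cytochrome P450 or APRR (pseudo-response regulators, mostly clock proteins) were left out, and no measured level entered the choice. Of the 147 genes, 43 belonged to gibberellin, 54 to cytokinin and 50 to abscisic acid.

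Both libraries came from the double haploid line ‘FT’. The Ant library held anthers of different developmental stages, pooled from flower buds of flowering plants grown from seeds vernalized at 4 °C for 20 days. The Mix library held root, stem and leaf together, from whole seedlings with 4 true leaves. The sample labels give the same vernalization for both libraries, whereas the study's methods give none for Mix, so organ cannot be told apart from plant age and may not be from vernalization. Each group held 1 library. No difference therefore had a replicate check, no p-value was computed, and each ratio compared 2 libraries rather than 2 conditions. In pooled organs, fewer cells of a type and less RNA per cell cannot be told apart.

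Levels were FPKM, fragments scaled to the length of the transcript and the size of the library, so levels could be set side by side between genes. The Ant library held 216371346 estimated counts and the Mix library 190816341. The ratio given for each gene is log2((FPKM in Ant + 1)/(FPKM in Mix + 1)), which understates the difference of low genes. A gene passed the filter with an FPKM of at least 1 in either library, and a ratio above 2 or below -2 was called. A single 500 kb window of chromosome A06 (15000001 to 15500000) took 2.07% of the counts in Ant and 56.2% in Mix, and the median ratio of the 17562 transcripts with an FPKM of at least 1 in both libraries was 0.54. The ratios of reference transcripts and their medians were therefore also computed on 3 other scales. These were centred on that median, recomputed on library totals without the A06 window, and rescaled to equal sums of FPKM. The median ratio of those 17562 transcripts was then 0, -0.17 and -0.28. Summed levels and levels of assembled isoforms were read on the deposited scale only, unless stated. A higher sum in Ant may therefore not hold on the other scales. The labelled organs were checked by their markers. Of 48 pollen and tapetum markers, 40 were higher in Ant, with summed FPKM of 9113 in Ant and 96.2 in Mix. All 29 leaf markers were higher in Mix, summing to 26.7 in Ant and 19120 in Mix, and the 10 Casparian strip markers of root summed to 0 in Ant and 23.5 in Mix.

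Gibberellins are growth hormones that promote stem elongation, stamen growth and pollen development. A bioactive gibberellin binds the receptor GID1, which then takes DELLA proteins, repressors of growth genes, to degradation through an F-box protein. Cytokinins promote cell division. They are read by histidine kinases, which pass a phosphate through carrier proteins to response regulators, where type-B regulators switch genes on and type-A regulators damp the signal. Abscisic acid is the hormone of seed maturation, desiccation tolerance and drought. Its PYR/PYL receptors inhibit 2C protein phosphatases, which frees SnRK2 kinases (SRK2) to activate transcription factors of the ABI5 family. These roles were worked out mainly in Arabidopsis.

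Of the 147 genes, 94 passed the filter and 53 did not. Among the 94, 15 had a ratio above 2 (15.96%), beside 21.2% of all 19909 reference transcripts that passed. A further 12 had a ratio below -2 (12.8%), beside 9.48% of all. Centred on the median transcript, 12 were above 2 and 15 below -2, beside 15.2% and 14.7% of all reference transcripts. Without the A06 window the counts were 13 and 18, beside 16.3% and 17.2%. The counts above 2 and below -2 given for single roles below rest on few genes and are to be read beside these shares. The median ratio of the 94 genes was 0.31, beside 0.62 for all reference transcripts that passed, and it was below 0 on each of the 3 other scales (-0.22 centred, -0.30 without the A06 window and -0.38 with equal sums). Of the 15 genes above 2, 12 stayed above 2 on all 3 other scales, and all 12 below -2 stayed below it. The 27 called genes kept their direction on every scale, whereas 11 of the 67 uncalled genes did not.

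**Figure D1:**
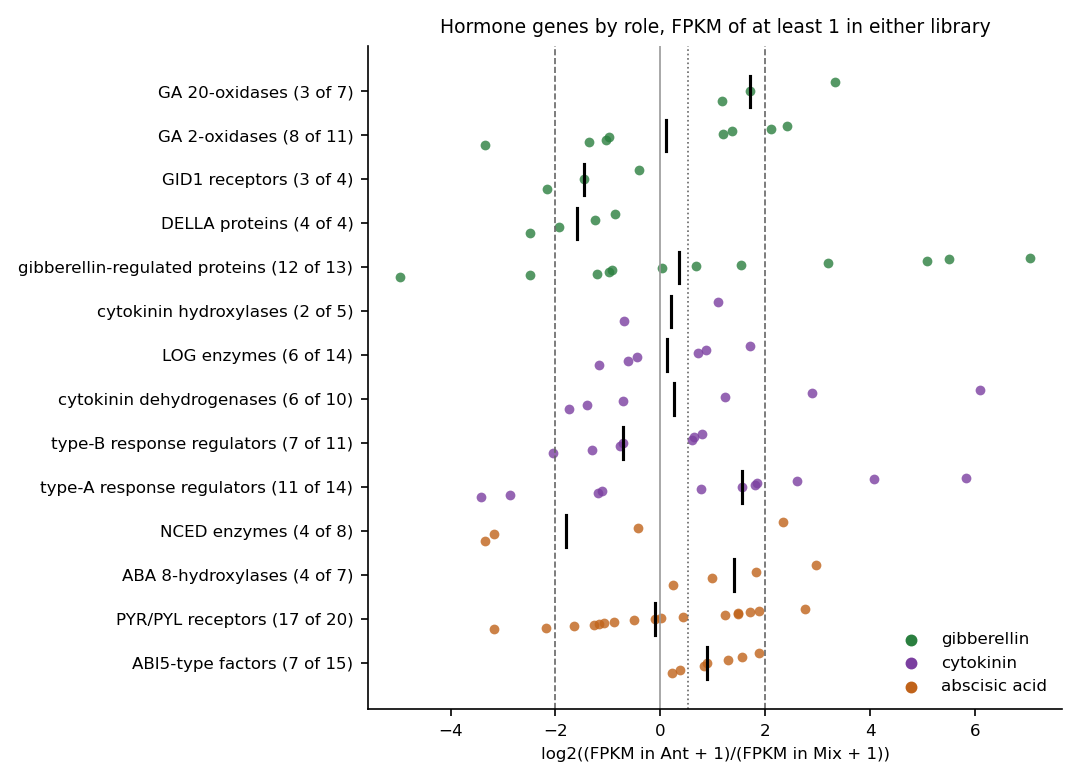
Ratios of the 94 hormone genes with an FPKM of at least 1 in either library, by role, with the number passing and the number in all in brackets. Each point is 1 gene, bars are medians, dashed lines mark -2 and 2, and the dotted line marks the median transcript at 0.54. All DELLA and GID1 genes lie below 0 and all GA 20-oxidases, ABA 8'-hydroxylases and ABI5-type factors above it (2 of the 8'-hydroxylases and 2 of the ABI5-type factors lie below 0 on other scales), whereas the gibberellin-regulated proteins spread between -4.97 and 7.06.

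Few of the 147 genes reached a high level. Only 4 genes reached an FPKM of 100 in Ant and 1 in Mix, and the share of all transcripts at that level is not given here. The 4 in Ant were gibberellin-regulated protein 1 (BraA07g039240.3C), cytokinin dehydrogenase 3 (BraA02g012590.3C), gibberellin-regulated protein 10 (BraA02g010620.3C) and response regulator ARR16 (BraA03g021580.3C). The 1 in Mix was gibberellin-regulated protein 4-like (BraA02g005940.3C). Over all 147 genes the summed FPKM was 1621 in Ant and 869 in Mix on the deposited scale. This sum was not recomputed on the 3 other scales, on which the median ratio of the genes that passed was below 0. At the other end, 18 genes had no count in Ant and 21 none in Mix. Of all 50834 linear transcripts, 46697 were above 0 in Ant and 41874 in Mix.

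Among the enzymes of gibberellin synthesis, the 20-oxidases were higher in Ant. These enzymes carry out the late oxidation steps that lead to the precursors of bioactive gibberellins. The 7 genes summed to an FPKM of 13.7 in Ant and 1.01 in Mix, and the 3 that passed all had positive ratios on all scales. Gibberellin 20 oxidase 2 (BraA02g015640.3C, chromosome A02, 8232492 to 8233891) had 9.80 in Ant and 0.08 in Mix, a ratio of 3.33, on 2577 and 20 estimated counts. Its second copy on A10 (BraA10g010400.3C) had 2.27 in Ant and no count in Mix, at least 99.7-fold higher against a floor of 6 estimated counts per library. Gibberellin 20 oxidase 3-like (BraA02g002260.3C) had 1.27 in Ant and no count in Mix, at least 55.6-fold higher. The one 20-oxidase whose level was mostly in Mix was gibberellin 20 oxidase 3 (BraA10g030020.3C), with 0.02 in Ant and 0.86 in Mix.

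The 3-oxidases, which complete the step to bioactive gibberellin, were low in both libraries. None of the 4 genes reached an FPKM of 1, and they summed to 0.98 in Ant and 0.34 in Mix. The most abundant was gibberellin 3-beta-dioxygenase 2 (BraA02g026000.3C), with 0.92 in Ant and 0.10 in Mix. The reading at this level rests on 229 and 26 estimated counts.

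The 2-oxidases inactivate gibberellins, and their copies split between the organs. Of 11 genes, 8 passed, 2 above 2 and 1 below -2. The median ratio was 0.11 and turned negative on the 3 other scales (-0.43, -0.28 and -0.29). The 4 with positive ratios, gibberellin 2-beta-dioxygenase 1-like, 6-like and the 2 copies of 8-like, reached 4.34 in Ant at most. Gibberellin 2-beta-dioxygenase 8-like (BraA08g014480.3C) had that 4.34 in Ant and no count in Mix, at least 169.5-fold higher, and 6-like (BraA08g035680.3C) had 4.08 in Ant and 0.18 in Mix. Their ratios of 2.42 and 2.10 dropped to 1.88 and 1.57 when centred. In the opposite direction, gibberellin 2-beta-dioxygenase 6 (BraA10g001200.3C, A10, 624192 to 626567) had 1.15 in Ant and 20.8 in Mix, a ratio of -3.34. This single gene held 81.7% of the summed FPKM of the family in Mix, which was 13.4 in Ant and 25.4 in Mix over all 11 genes.

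Both levels of gibberellin perception were lower in Ant. All 3 GID1 receptors that passed had negative ratios, with a median of -1.46, and all 4 DELLA genes did, with a median of -1.59. These directions held on all scales. GID1B (BraA09g052310.3C, A09, 38220927 to 38222212) had 1.81 in Ant and 11.5 in Mix, a ratio of -2.16. The GID1B-like copy (BraA07g025340.3C) had 0.12 in Ant and 2.08 in Mix, whereas GID1A (BraA05g040050.3C) had 3.67 in Ant and 5.16 in Mix. The reference transcript of GID1C (BraA06g034110.3C) stood at 0.03 in Ant and 0.04 in Mix, but an assembled isoform of the same gene had 5.26 in Ant and 20.8 in Mix.

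The DELLA genes are intronless repressors of gibberellin responses. RGA1 (BraA06g040430.3C, A06, 26862630 to 26864351) was the most abundant in Mix, with 5.96 in Ant and 38.2 in Mix, a ratio of -2.49. RGA2 (BraA09g023210.3C) had 4.46 in Ant and 19.9 in Mix, a ratio of -1.94 that passed -2 on the 3 other scales. RGL1 (BraA02g017030.3C) had 5.98 in Ant and 11.7 in Mix, and RGL3 (BraA10g022510.3C) had 0.80 in Ant and 3.30 in Mix. The summed level of the 4 genes was 17.2 in Ant and 73.0 in Mix, 4.24-fold lower in Ant.

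Gibberellin-regulated proteins, called GASA proteins in Arabidopsis, are small secreted peptides rich in cysteine. They held the highest levels and the widest spread of all the hormone genes, with 12 of 13 passing, 4 above 2 and 2 below -2, counts that were the same on the 3 other scales. Gibberellin-regulated protein 1 (A07, 26868479 to 26868949) had 357 in Ant and 9.54 in Mix, 37.4-fold higher and a ratio of 5.09. Gibberellin-regulated protein 10 (A02, 5188938 to 5189306) had 162 in Ant and 0.22 in Mix, a ratio of 7.06, on 10138 and 14 estimated counts. Its copy on A10 (BraA10g017680.3C) had 8.24 in Ant and no count in Mix, at least 88.4-fold higher. Gibberellin-regulated protein 9 (BraA09g040350.3C) had 85.8 in Ant and 0.92 in Mix, 93.6-fold higher. These 4 genes were the ones above 2.

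The reverse pattern was held mainly by gibberellin-regulated protein 4-like (A02, 2820303 to 2821268). It had 3.60 in Ant and 143 in Mix, 39.8-fold lower and a ratio of -4.97, the lowest of all 94 genes. It made up 68.5% of the summed level of the family in Mix, as gibberellin-regulated protein 1 made up 54.9% in Ant. The family as a whole summed to 650 in Ant and 209 in Mix. Gibberellin-regulated protein 13-like (BraA01g040480.3C) had 0.15 in Ant and 5.43 in Mix, a ratio of -2.48. The second copy of gibberellin-regulated protein 1 (BraA07g027650.3C) lay near equality, with 2.83 in Ant and 2.74 in Mix, and its ratio of 0.03 turned negative on the other scales.

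**Figure D2:**
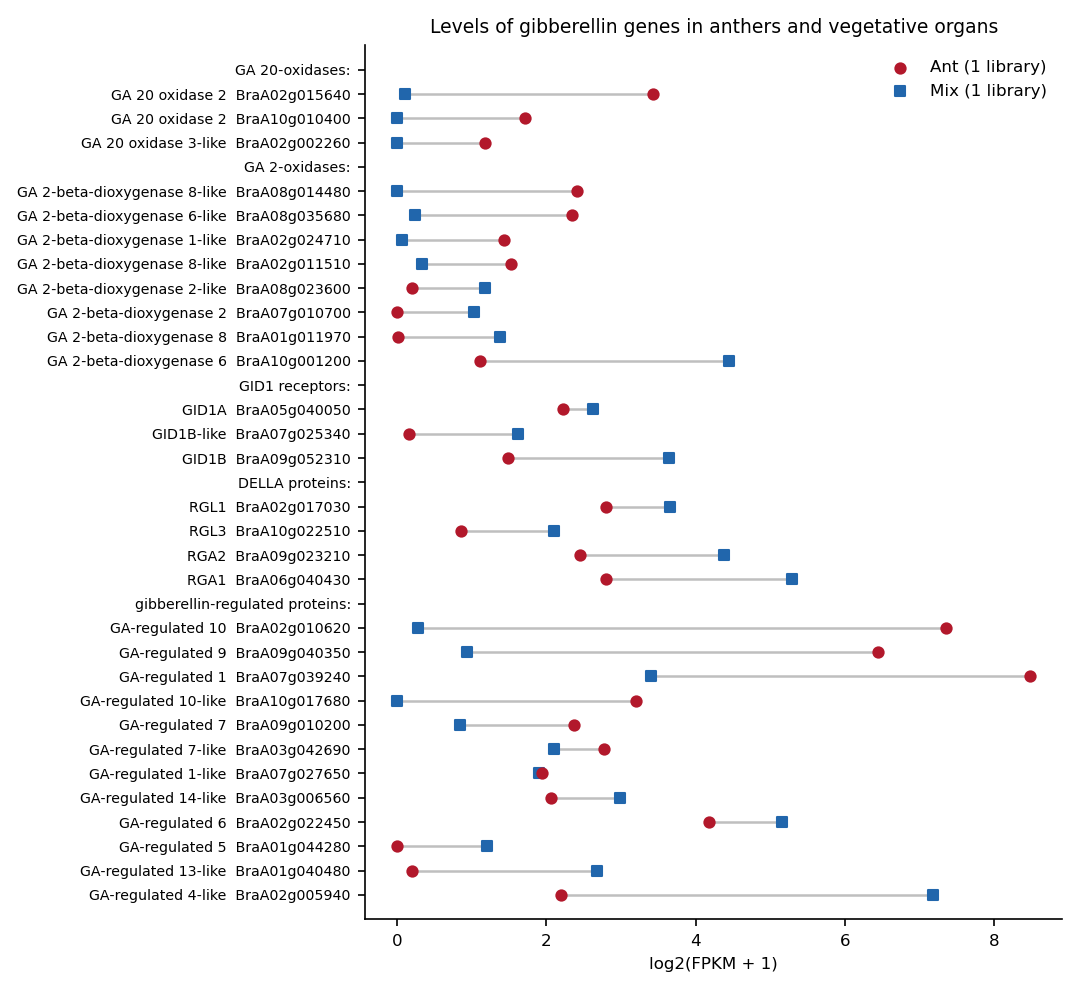
Level of each gibberellin gene that passed the filter, as log2(FPKM + 1), with circles for Ant and squares for Mix, 1 library each. The 4 DELLA and 3 GID1 genes have the Ant circle left of the Mix square, and the longest lines belong to gibberellin-regulated proteins 10, 9 and 1 (higher in Ant) and 4-like (lower in Ant).

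Genes upstream of these steps gave few readings. Of 6 reference transcripts for the enzymes from ent-copalyl diphosphate synthase to ent-kaurenoic acid oxidase, 2 passed and none was called. An ent-copalyl diphosphate synthase (BraA09g001440.3C) had 1.18 in Ant and 0.12 in Mix, and ent-kaurene oxidase (BraA06g033010.3C) had 0.67 in Ant and 1.64 in Mix. Ent-kaurenoic acid oxidase 2 (BraA05g012440.3C) had no count in Ant and 0.55 in Mix in the reference transcript, but 4.62 in Ant and 0.03 in Mix in an assembled isoform, and on the sum its ratio was 1.83. The F-box protein GID2 (BraA01g014970.3C), which takes DELLA proteins to degradation in rice and has a counterpart named SLEEPY1 in Arabidopsis, had 4.36 in Ant and 14.8 in Mix. Its ratio of -1.56 had the sign of the GID1 and DELLA ratios and reached -2.10 when centred.

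Among the cytokinin genes, the reference transcripts of the LOG enzymes and of the cytokinin hydroxylases reached at most 3.63 in Ant and 2.57 in Mix. LOG enzymes release the active cytokinin base from its nucleotide. Of 14 LOG genes 6 passed and none was called, with summed levels of 11.3 in Ant and 9.64 in Mix, or 30.8 in Ant and 12.98 in Mix with assembled isoforms added. LOG7 (BraA10g029010.3C) was the most abundant in Ant, with 3.63 in Ant and 1.83 in Mix, although its ratio of 0.71 turned to -0.02 with equal sums of FPKM. LOG6 (BraA02g000810.3C) had 2.35 in Ant and 0.02 in Mix, where it had 3 estimated counts. LOG4 (BraA07g021270.3C) had no count in Ant and 1.24 in Mix, at least 31.1-fold lower in Ant, and LOG3-like (BraA05g008250.3C) had 1.62 in Ant and 2.57 in Mix. Cytokinin hydroxylases make trans-zeatin forms, and 2 of the 5 passed. One (BraA02g017430.3C) had 2.36 in Ant and 0.55 in Mix, and the other (BraA03g014910.3C) had 0.24 in Ant and 1.02 in Mix.

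Isopentenyltransferases, which start cytokinin synthesis, lie outside the 147 genes. Of their 9 reference transcripts 4 passed. Adenylate isopentenyltransferase 1 (BraA02g018390.3C) was above 2, with 10.1 in Ant and 0.05 in Mix on 2443 and 12 estimated counts. The other 3 that passed, copies of isopentenyltransferases 3 and 7, had ratios between -1.04 and -1.01 and levels of at most 0.04 in Ant and 1.10 in Mix.

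The strongest cytokinin reading was that of a degrading enzyme. Cytokinin dehydrogenases cleave the side chain of cytokinins and so inactivate them. Cytokinin dehydrogenase 3 (A02, 6284590 to 6287586) had 184 in Ant and 1.72 in Mix, on 66635 and 619 estimated counts, 107-fold higher and a ratio of 6.09. It made up 93.8% of the summed level of the 10 genes in Ant, which was 197 in Ant and 16.6 in Mix. Without it the sums were 12.2 in Ant and 14.8 in Mix. Its second copy on A10 (BraA10g014830.3C) did not pass, with 0.23 in Ant and 0.10 in Mix.

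The other dehydrogenases divided by number. Cytokinin dehydrogenase 2 (BraA09g011860.3C) had 6.48 in Ant and no count in Mix, at least 376-fold higher, and its 2-like copy (BraA07g001320.3C) had 1.59 in Ant and 0.10 in Mix. Cytokinin dehydrogenases 6 and 7 lay the other way. Number 6 (BraA09g052550.3C) had 2.31 in Ant and 7.70 in Mix, a ratio of -1.40, and 7-like (BraA02g009460.3C) had 0.49 in Ant and 3.96 in Mix, a ratio of -1.73. Both ratios passed -2 without the A06 window and with equal sums.

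The reference transcripts of histidine kinases 3 and 4, the cytokinin receptors found in the annotation, did not pass, with at most 0.12 in Ant and 0.04 in Mix. Their levels lay in assembled isoforms that share a splice junction with the reference transcript. That of histidine kinase 3 (BraA07g012270.3C) had 6.64 in Ant and 4.26 in Mix, and that of histidine kinase 4 (BraA06g040070.3C) had 7.82 in Ant and 5.15 in Mix. Of 6 phosphotransfer proteins, which carry the phosphate to the nucleus, 5 passed and none was called. Their ratios ran between -0.22 and 0.98, and their summed levels were 14.04 in Ant and 10.4 in Mix. Their median ratio of 0.13 turned negative on the 3 other scales (-0.41 centred, -0.40 without the A06 window and -0.45 with equal sums). The one that did not pass, phosphotransfer protein 4-like (BraA03g037500.3C), had an isoform with 3.897 in Ant and 0.03 in Mix.

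Type-B response regulators, the transcription factors at the end of the relay, lay on both sides. Of 11 genes 7 passed, none was above 2 and 1 was below -2. The summed levels were 24.1 in Ant and 30.0 in Mix, and the median ratio was -0.71. With assembled isoforms added, the sums were 33.4 in Ant and 31.2 in Mix and the median ratio was 0.13. ARR12 (BraA04g018620.3C) was the most abundant in Ant, with 6.27 in Ant and 3.79 in Mix, a ratio of 0.60 that turned negative without the A06 window and with equal sums. ARR1-like (BraA03g037680.3C) was the most abundant in Mix, with 4.57 in Ant and 8.14 in Mix. The called gene was ARR11-like (BraA07g031180.3C), with 0.23 in Ant and 4.06 in Mix, a ratio of -2.04, and its sister ARR11 (BraA07g032950.3C) had 0.32 in Ant and 2.23 in Mix. ARR18 (BraA02g011810.3C) had 3.18 in Ant and 1.42 in Mix.

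Type-A response regulators, which are themselves cytokinin-induced in Arabidopsis and feed back on the signal, split by ARR number. Of 14 genes 11 passed, 3 above 2 and 2 below -2. ARR16 (A03, 10310989 to 10311877) had 124 in Ant and 1.19 in Mix, 104-fold higher and a ratio of 5.83. ARR9 (BraA09g047720.3C) had 19.2 in Ant and 0.20 in Mix, a ratio of 4.08, and ARR9-like (BraA07g022670.3C) had 5.12 in Ant and no count in Mix, at least 142-fold higher. Both copies of ARR5 and both of ARR7 also had positive ratios, between 0.79 and 1.84, on all scales. The more abundant copy of ARR5 (BraA01g024740.3C) had 34.9 in Ant and 9.05 in Mix.

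ARR4 and ARR3 stood on the other side. The 3 ARR4-like genes were all lower in Ant on all scales. BraA08g032060.3C (A08, 21415890 to 21416970) had 0.23 in Ant and 12.2 in Mix, 52.9-fold lower and a ratio of -3.42. BraA06g007290.3C had 0.72 in Ant and 11.6 in Mix, 16.01-fold lower, and BraA09g061870.3C had 7.19 in Ant and 16.6 in Mix, a ratio of -1.10. With its assembled isoform added, BraA09g061870.3C had 13.8 in Ant and 16.9 in Mix, a ratio of only -0.27. ARR3 (BraA09g017500.3C) had no count in Ant and 1.26 in Mix, at least 33.3-fold lower in Ant. The type-A genes together summed to 212 in Ant and 58.0 in Mix, and ARR16 made up 58.4% of the level in Ant.

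**Figure D3:**
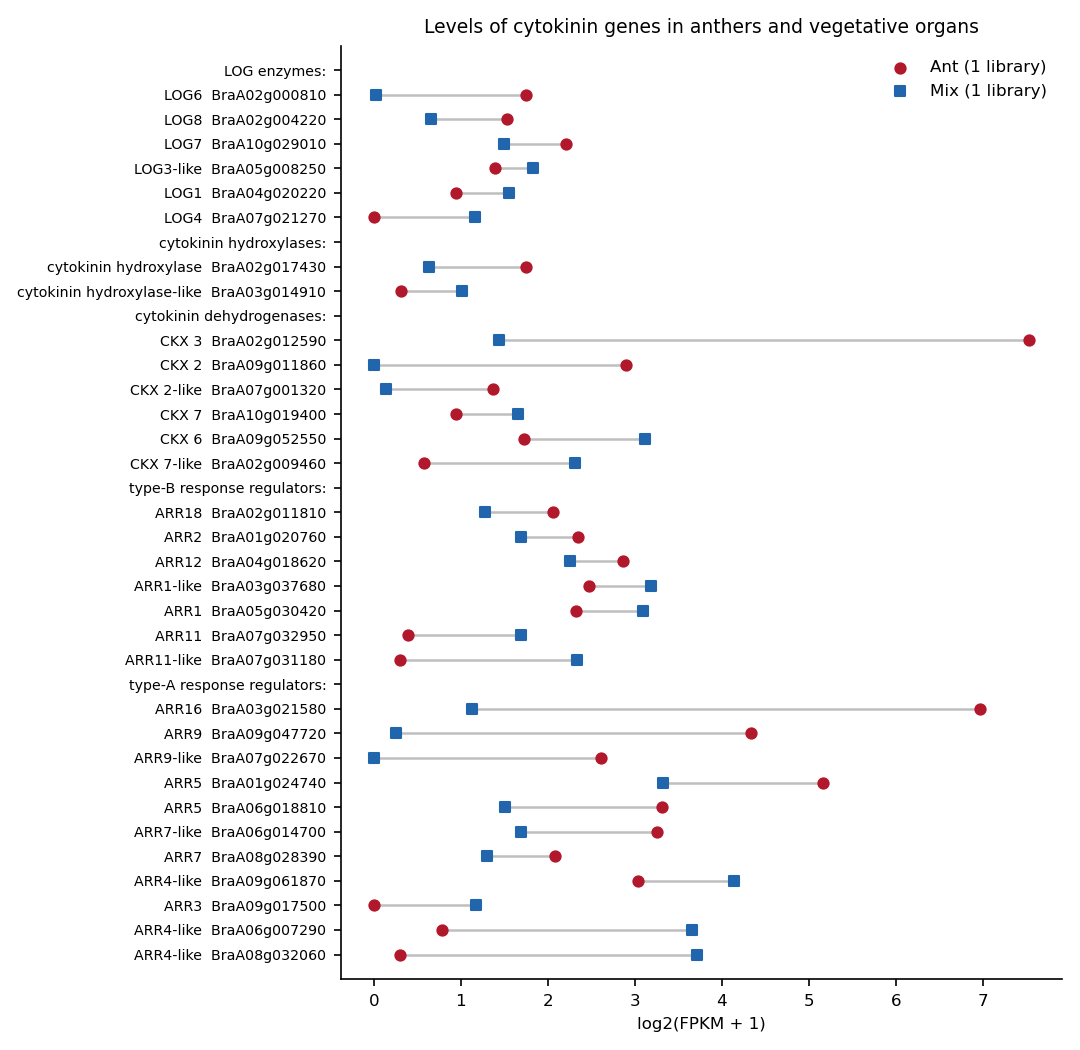
Level of each cytokinin gene that passed the filter, as log2(FPKM + 1), with circles for Ant and squares for Mix, 1 library each. Cytokinin dehydrogenase (CKX) 3 and ARR16 stand furthest right in Ant, at 184 and 124 FPKM, whereas the ARR4-like, ARR3 and ARR11 genes have the Mix square on the right.

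For abscisic acid, 3 of the 4 copies that passed of the enzyme that commits carotenoids to its synthesis had negative ratios. The 9-cis-epoxycarotenoid dioxygenases (NCED) cleave epoxycarotenoids to xanthoxin, and all 8 genes are intronless. Of these 4 passed, 1 above 2 and 2 below -2. NCED3 (BraA05g032610.3C, A05, 23617142 to 23618935) had 5.12 in Ant and 61.1 in Mix, 11.9-fold lower and a ratio of -3.34. A second NCED3 (BraA01g037270.3C) had 1.33 in Ant and 19.9 in Mix, 14.9-fold lower, and NCED3-like (BraA03g036470.3C) had 3.86 in Ant and 5.55 in Mix, a ratio of -0.43. NCED9 (BraA07g041520.3C, A07, 27998552 to 28000360) had 6.65 in Ant and 0.52 in Mix. Its ratio of 2.33 stayed positive on all scales but dropped to 1.79 when centred. Over all 8 genes, 4 had the higher level in Ant and 4 in Mix. Below the filter, NCED2 (BraA03g048210.3C) had 0.63 in Ant and 0.02 in Mix, on 259 and 9 estimated counts, and a probable NCED5 (BraA09g034930.3C) had 0.64 in Ant and 0.08 in Mix, on 264 and 32. The summed level of the 8 genes was 18.2 in Ant and 87.3 in Mix.

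The steps around NCED had 5 reference transcripts outside the 147 genes, of which 2 passed, and these were both zeaxanthin epoxidases. BraA09g009220.3C had 14.1 in Ant and 1.205 in Mix, a ratio of 2.78, and BraA07g016880.3C had no count in Ant and 9.88 in Mix, a ratio of -3.44. An isoform of BraA07g016880.3C had 3.01 in Ant and 18.05 in Mix, and on the sum of both its ratio was -2.85. Xanthoxin dehydrogenase (BraA08g002160.3C) had 0.55 in Ant and 0.40 in Mix, a ratio of 0.15 that turned negative on the 3 other scales.

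The 8'-hydroxylases, which begin the breakdown of abscisic acid, had positive ratios in all 4 genes that passed, of which 2 turned negative on other scales. The summed level of the 7 genes was 114 in Ant and 52.5 in Mix. Abscisic acid 8'-hydroxylase 3 (BraA09g021180.3C, A09, 13768653 to 13770568) was the most abundant in both organs, with 86.9 in Ant and 43.1 in Mix. Its ratio of 0.995 dropped to 0.14 without the A06 window and lay marginally below 0 with equal sums, and that of 3-like (BraA06g042600.3C), with 7.18 in Ant and 5.91 in Mix, turned negative on the 3 other scales. The 8'-hydroxylases 4 and 1 kept their direction. Number 4 (BraA05g028020.3C) had 7.37 in Ant and 0.07 in Mix on 2328 and 21 estimated counts, a ratio of 2.97, and number 1 (BraA03g048740.3C) had 12.2 in Ant and 2.71 in Mix, 4.48-fold higher. The opposite was seen in 8'-hydroxylase 2 (BraA04g020810.3C), which did not pass, with no count in Ant and 0.50 in Mix.

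The PYR/PYL receptors were the largest group and were abundant in both organs. Of 20 genes 17 passed, 1 above 2 and 2 below -2, with 8 positive and 9 negative ratios. The summed levels were 322 in Ant and 279 in Mix on the deposited scale. The median ratio of -0.10 dropped to -0.64 when centred, -0.96 without the A06 window and -1.09 with equal sums. PYL4-like (BraA04g027160.3C, A04, 19189805 to 19190419) had the highest level in Ant, with 92.3 in Ant and 24.4 in Mix, 3.78-fold higher. PYL7-like (BraA03g029760.3C, A03, 14985179 to 14985912) had the highest in Mix, with 43.4 in Ant and 92.6 in Mix, 2.13-fold lower in Ant. Both kept their direction on all scales. The gene above 2 was PYL9-like (BraA07g024750.3C), with 11.8 in Ant and 0.88 in Mix, a ratio of 2.76.

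Copies of a receptor with the same name differed in direction. The 3 PYL4 genes had 92.3, 48.6 and 0.73 in anthers and 24.4, 20.0 and 14.6 in vegetative organs. The last of these (BraA05g007290.3C, A05, 3712225 to 3712674) was 20.1-fold lower in Ant, with a ratio of -3.18, whereas the other two were higher in Ant on all scales. Among the PYR1 genes, a PYR1-like copy on A08 (BraA08g012630.3C) had 44.7 in Ant and 12.9 in Mix, and one on A09 (BraA09g022320.3C) had 1.91 in Ant and 12.2 in Mix, a ratio of -2.18. The 14 intronless receptors, which were the PYR1, PYL4, PYL5 and PYL6 genes and 1 PYL7 gene, summed to 254 in Ant and 172 in Mix. The 6 with 3 exons, which were the PYL8 and PYL9 genes and PYL7-like, summed to 68.0 in Ant and 107 in Mix. PYL7-like held most of that, and the other 5 summed to 24.6 in Ant and 14.1 in Mix. These sums are on the deposited scale, and their directions were not read on the other scales.

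Of the 15 transcription factors of the ABI5 family 7 passed on the reference transcript, and all 7 had positive ratios, between 0.23 and 1.87, of which 2 turned negative on the 3 other scales. None was called. They are bZIP proteins that bind the abscisic acid-responsive elements of target promoters. ABI5-like protein 7 (BraA05g027980.3C), whose Arabidopsis counterpart is ABF4, had 4.27 in Ant and 0.44 in Mix, 9.75-fold higher. ABI5-like protein 2 (BraA09g047430.3C) was the most abundant in Mix, with 3.71 in Ant and 2.60 in Mix. An ABI5-like gene (BraA04g025810.3C) had 1.93 in Ant and no count in Mix, at least 88.4-fold higher, and ABI5 itself (BraA05g009140.3C) had 2.33 in Ant and 0.88 in Mix. The 2 that turned negative were ABI5-like proteins 2 and 4, and the other 5 stayed positive. With assembled isoforms added 11 genes passed, 10 with positive ratios, and ABI5-like protein 6 (BraA01g004230.3C) had 0.999 in Ant and 3.86 in Mix, a ratio of -1.28.

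**Figure D4:**
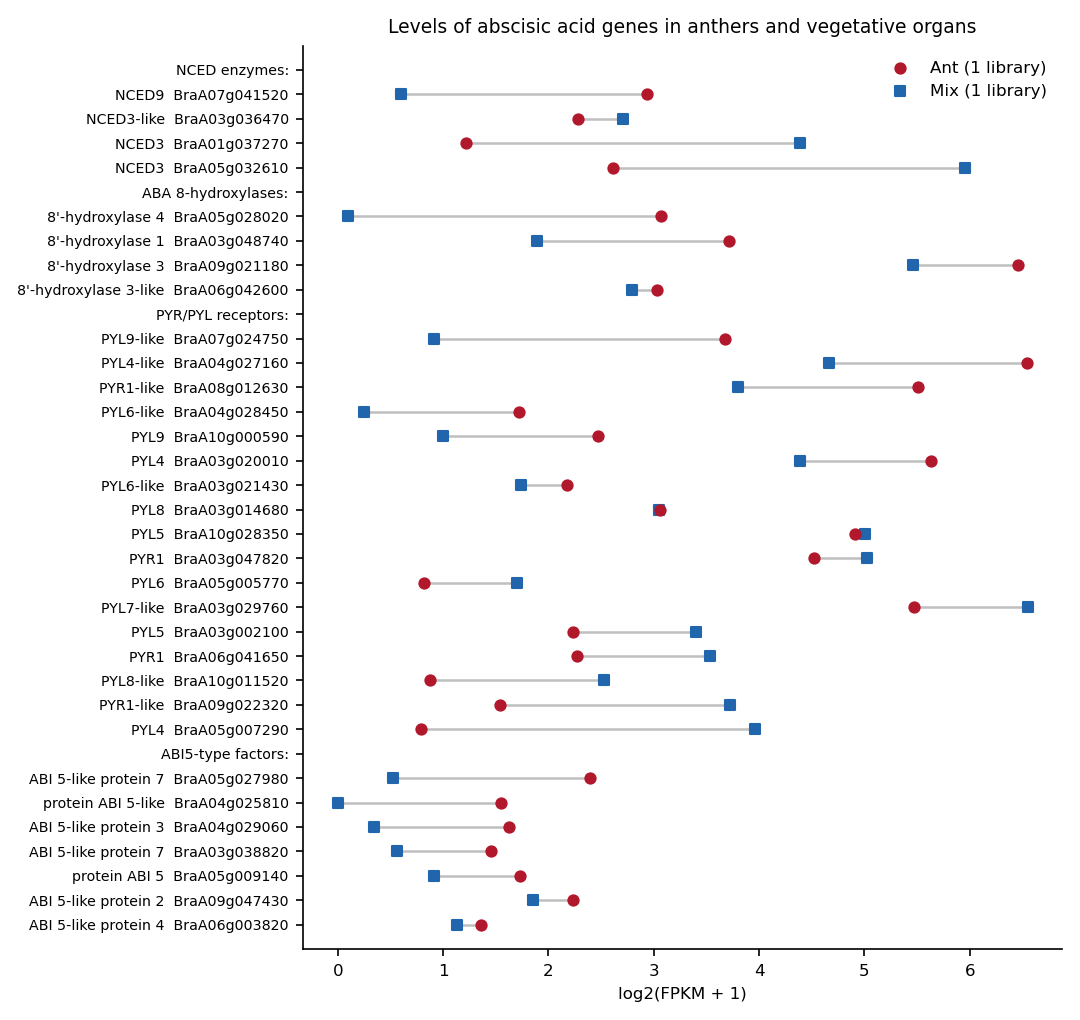
Level of each abscisic acid gene that passed the filter, as log2(FPKM + 1), with circles for Ant and squares for Mix, 1 library each. The NCED3 genes have the Mix square on the right and the 8'-hydroxylases the Ant circle (on other scales 2 of these 4 turn round), and the 17 receptors spread in both directions, PYL4-like reaching 92.3 FPKM in Ant and PYL7-like 92.6 in Mix.

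The phosphatases 2C and SRK2 kinases, families with members that act between receptor and transcription factor, lie outside the 147 genes. The kinase list held every gene named SRK2, also those without the main role in abscisic acid signalling. Of the 13 phosphatases 2C on the list 11 passed, 2 above 2 and 1 below -2. The list was not complete, and 2C 78, which it lacked, had a ratio of 2.15 (closing section). Phosphatase 2C 37 (BraA05g035520.3C), which is PP2CA in Arabidopsis, had 20.0 in Ant and 109 in Mix, a ratio of -2.38, while 2C 16-like (BraA07g037090.3C), named for HAB1, had 32.9 in Ant and 4.53 in Mix, a ratio of 2.62 that dropped to 1.87 without the A06 window. The other above 2, 2C 3-like (BraA09g063330.3C), had a ratio of 2.05 that was below 2 on the 3 other scales. The count above 2 was 1 when centred and 0 without the A06 window and with equal sums, while 1 stayed below -2. The median ratio of the phosphatases, 0.55, turned negative without the A06 window (-0.19) and with equal sums (-0.30). With assembled isoforms added, 3 phosphatases were above 2 and 1 below -2, or 0 and 1 with equal sums. The added one was 2C 56-like (BraA03g052950.3C), with 53.5 in Ant and 12.2 in Mix, a ratio of 2.05. Another 2C 56-like (BraA01g016800.3C) turned from -0.17 to 1.26. The summed levels were then 160.8 in Ant and 160.4 in Mix, against 121 in Ant and 153 in Mix without isoforms. Of 11 SRK2 kinases 10 passed, 6 above 2 and none below -2, beside 21.2% and 9.48% of all reference transcripts that passed. Centred on the median transcript, 3 were above 2 and 1 below -2, without the A06 window and with equal sums 3 were above 2 and 2 below -2, and the median ratio of 2.14 became 1.60 when centred. SRK2F (BraA01g000880.3C) had 137 in Ant and 1.01 in Mix, 136-fold higher. SRK2D (BraA03g045150.3C) had 10.3 in Ant and 24.4 in Mix, and SRK2A (BraA01g028580.3C) had 1.79 in Ant and 10.1 in Mix. The SRK2A-like genes lay the other way and were more abundant. BraA09g061620.3C had 51.2 in Ant and 2.66 in Mix, and BraA06g007760.3C had 44.2 in Ant and 6.89 in Mix. SRK2D, SRK2E and SRK2I are the members of this family with the main role in abscisic acid signalling in Arabidopsis. Here SRK2E-like (BraA03g058470.3C) had 12.7 in Ant and 1.89 in Mix, and SRK2E (BraA01g004270.3C) had 3.58 in Ant and 0.12 in Mix. SRK2I (BraA07g017040.3C) had 4.66 in Ant and 3.95 in Mix, a ratio of 0.19 that turned negative on the 3 other scales.

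Brassica rapa carries several copies of most of these genes. Among the 147 genes, 47 names were shared by 2 or more genes (114 genes in all, with -like forms counted under the same name), and 27 of these names had at least 2 genes that passed. Within a name the ratios spanned a median of 1.46, and in 9 names they spanned more than 2. In 4 names, PYL4, PYR1 and the gibberellin 2-beta-dioxygenases 6 and 8, 1 copy was above 1 and another below -1, and the opposite directions held on all scales. In others the copies lay close together, such as the 2 copies of ARR5, with ratios of 1.84 and 1.80. Reads of near-identical copies can be assigned to either, so the split within a name is less certain than its sum.

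Assembled isoforms added to the picture. For 23 of the 147 genes the table held 24 assembled transcripts that share at least 1 splice junction with the reference transcript (class code j). In 17 genes the assembled isoform exceeded the reference transcript in at least 1 library. When levels were summed over both, 105 genes passed, 20 were above 2 and 12 below -2. Of all reference transcripts, 24106 passed on such sums, 5756 above 2 and 1933 below -2. Without isoforms, 19909 passed, 4229 above 2 and 1888 below -2, so calls above 2 rose over the whole series too. Among the 147 genes the changes were as follows. On the deposited scale, the only one used here, none of the 27 calls was lost and 5 were gained. The gained ratios were 2.77 (BraA04g003520.3C), 2.52 (8'-hydroxylase 1), 2.26 (gibberellin 20 oxidase 2 on A10), 2.10 (LOG8-like) and 2.01 (ABI5-like protein 7 on A01). They were not recomputed on the 3 other scales, so gains close to 2 may not hold there. ARR9-like (BraA07g022670.3C) had 58.5 in Ant and 0.08 in Mix in its isoform, beside 5.12 in Ant and no count in Mix in the reference transcript. The isoform of the third ARR9 gene (BraA04g003520.3C) had 16.9 in Ant and 1.47 in Mix, so that all 3 ARR9 genes were above 2 on this sum. The isoform of 8'-hydroxylase 1 had 37.8 in Ant and 5.19 in Mix, that of 8'-hydroxylase 4 had 22.3 in Ant and 0.08 in Mix, and that of LOG8-like (BraA10g026300.3C) had 15.9 in Ant and 2.92 in Mix. The other 2 gained were ABI5-like protein 7 on A01 (BraA01g033820.3C), with 8.59 in Ant and 1.39 in Mix on the sum, and gibberellin 20 oxidase 2 on A10, with 3.86 in Ant and 0.01 in Mix.

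**Figure D5:**
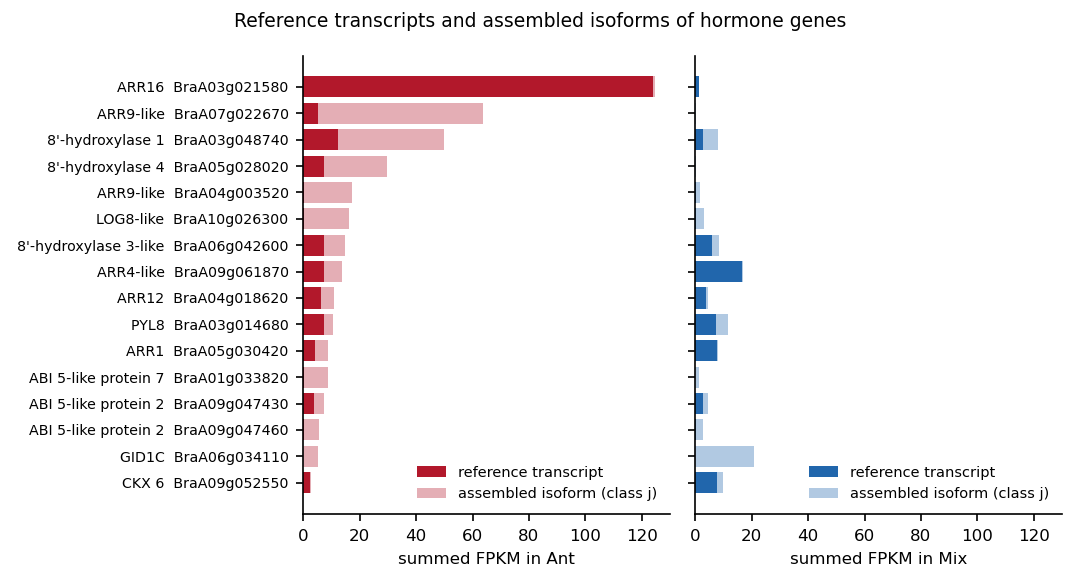
Summed FPKM of the reference transcript (dark) and the assembled isoform (light) in Ant (left) and Mix (right), for the 16 genes with an isoform and a sum of at least 5 FPKM in either library. The isoform holds most of the level of ARR9-like, 8'-hydroxylases 1 and 4 and LOG8-like in Ant and of GID1C in Mix, whereas ARR16 is nearly all reference transcript.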

How the data were processed

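RNA depleted of ribosomal RNA was sequenced from 2 libraries, 1 of anthers (Ant) and 1 of root, stem and leaf (Mix). The authors trimmed reads with Cutadapt, mapped them with Bowtie2 and TopHat2 against genome version v3.0 of Brassica rapa, and assembled transcripts with StringTie. The submitters' processing notes name HISAT2, StringTie and TopHat. The deposited FPKM were used as given. The study's methods name StringTie and Ballgown for the levels and its results name Cuffdiff. The deposited estimated counts follow FPKM times length, and 1 is worth less than 1 read, so 6 estimated counts served as the floor of a library, which covers counting error only (0.0259 FPKM in Ant and 0.0260 in Mix at 1 kb). The deposited counts of circRNAs are back-spliced junction reads found by the authors with CIRCexplorer, and the deposited SRPBM signal was not used further. The counting's strand setting is not given in the sources used here, so overlapping genes are uncertain. Reference transcripts are those of class code =, and assembled isoforms those of class code j. All 147 lengths are multiples of 3 and are coding lengths.

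Roles were assigned by annotation. The genes named were, in each role, the highest in each library and the extreme ratios, all genes of roles with 5 or fewer passing, and those with an FPKM of at least 100. Others, among them the remaining called genes, were added after their values were seen, as was the floor. The genes and lists were chosen with earlier results of these data known. No test was run, since each group held 1 library. The calculation was tested on simulated data. Alternatives were the 3 other scales, pseudocounts of 0.1 and 0.01, no filter, a filter of 5 FPKM, and sums over class j isoforms. None of the gene IDs matched the RefSeq gene names given, and no sequence was used here. Python 3.11.15, pandas 2.3.3 and matplotlib 3.10.9 were used.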

Additional observations from a re-analysis of the deposited data

How the results depend on the processing

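With equal sums of FPKM, 20 genes were below -2, against 12 on the deposited scale. Over all 19909 reference transcripts that passed, 3272 were below -2 with equal sums, against 1888. A pseudocount of 0.1 gave 29 above 2 and 23 below -2, and one of 0.01 gave 30 and 25, since low genes then had larger ratios. Over all reference transcripts these pseudocounts gave 6397 and 6624 above 2, against 4229, and 3481 and 3631 below -2, against 1888. In the other alternatives the counts stayed within 1.5 times, between 12 and 20 above 2 and between 11 and 18 below -2. The median ratio ran between -0.38 and 0.71, below 0 on the 3 other scales and with a filter of 5 FPKM, where 51 genes passed. Of the 46 genes named by rule that passed the filter, 4 crossed the limit of 2 or -2 when centred, 5 without the A06 window, 6 with equal sums, 9 and 12 with pseudocounts of 0.1 and 0.01, and 2 on sums over isoforms, and no called gene among them changed sign. No paired analysis was possible because each group held 1 library, and no library could be left out. A gene with no count in a library may still be transcribed there below the floor of 6 estimated counts.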

Other observations

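Some of the hormone genes lie beside one another. Within 50 kb of each other on Brassica rapa v3.0 there were 11 pairs. The pairing of an ABI5-like protein 7 gene with an abscisic acid 8'-hydroxylase 4 gene occurred on both A05 and A03. On A05 the genes BraA05g027980.3C and BraA05g028020.3C lie 20103 bp apart, the first with 4.27 FPKM in Ant and 0.44 in Mix and the second with 7.37 in Ant and 0.07 in Mix. On A03 the genes BraA03g038820.3C and BraA03g038810.3C lie 6840 bp apart, the first with 1.73 in Ant and 0.47 in Mix and the second with 0.13 in Ant and 0.01 in Mix.

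NCED9 and gibberellin 2-beta-dioxygenase 1-like were likewise paired on A07 and A02, and here the gene with a level differed between the loci. On A07 NCED9 (BraA07g041520.3C) had 6.65 FPKM in Ant and 0.52 in Mix, whereas the neighbour 23517 bp away (BraA07g041560.3C) had no count in Ant and 3 estimated counts in Mix. On A02 NCED9-like (BraA02g024670.3C) had no count in Ant and 0.07 in Mix, and its neighbour 34124 bp away (BraA02g024710.3C) had 1.69 in Ant and 0.04 in Mix.

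Of 168 circRNAs, 1 came from a hormone gene, circRNA126 from PYL8 (BraA03g014680.3C, A03), with 1 back-spliced junction read in Ant and none in Mix. Phosphatase 2C 78 (BraA10g016990.3C), a relative of the listed phosphatases that the list did not hold, had 10.7 FPKM in Ant and 1.64 in Mix, a ratio of 2.15.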
